A study of Zea mays with 10 samples.

Results

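The leaf small RNA of 2 maize stocks that carry the 714 allele of p1 was set against that of 3 lines with other p1 alleles. The 714 stocks were 714, labelled P1-ww714, and 714H, labelled P1-ww714/B73, a genotype that pairs the 714 allele with that of B73. The other side held line id1 with the allele P1-wwid1, line id4 with P1-wwid4 and line 9d9a with P1-vv9d9a. The 5 libraries were chosen by tissue and line out of 10 in the series, and B73, an inbred line from which the reference genome of maize was first made, was left out of the comparison. All plants were seedlings of 14 days (Zea mays), grown in a chamber. Each line had 1 leaf library, so the lines of a side served as its replicates, and the labels do not say how many plants went into a library. The titles give the tissue as leaf, while the tissue label of the same libraries reads seedling. The files hold no gene names, so neither tissue nor cell type could be checked against marker genes.

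Maize small RNA is made up of microRNAs, which direct the cleavage or repression of matching messenger RNAs, and of small interfering RNAs, most of which come from transposons and other repeats and guide DNA methylation to them. In grasses the interfering RNAs of repeats are densest in the gene-rich arms, often just beside genes. The p1 gene lies on the short arm of chromosome 1 and encodes a Myb-type regulator of red phlobaphene pigment in the cob and the pericarp, the outer layer of the kernel. The letters of an allele name describe these parts, with w for white and v for variegated. The series concerns small RNA in copy number alterations, and the labels do not give the extent of any alteration.

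Reads had been counted by the authors in consecutive 100 kb windows, and are given here as reads per 1000000 (CPM). The 714 libraries held 9938924 reads in 714 and 9995528 in 714H, and the other lines held 8472011 to 10017497. The median window had 266 to 268 reads in the 714 stocks and 229.5 to 271 in the other lines, so depth differed little between the sides. The chi-square between 714 and 714H over windows was 5.40 per degree of freedom, where sampling noise alone gives about 1. For the 3 pairs among the other lines it was 9.29 to 14.3, so the 714 stocks were the more alike. In such bulk RNA, fewer cells of a type and less RNA per cell cannot be told apart.

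The comparison asks where in the genome the 714 stocks differed from the other p1 lines. Of 20298 windows tested, 975 were lower in the 714 stocks and 314 higher, which is 4.80% and 1.55% of the windows, or 6.35% in all (edgeR's quasi-likelihood test, adjusted p under 0.05 by Benjamini-Hochberg). The lower windows had a median log2 change of -0.88, and 362 of them were more than 2-fold lower. The higher windows had a median log2 change of 0.65, and 96 were more than 2-fold higher. In all 1289 windows called, both 714 stocks lay on the same side of all 3 other lines. Over all windows tested the sides lay apart in this way in 38.0%. The calls rest on both 714 libraries. Without 714 there were 681 lower and 113 higher windows, and without 714H there were 553 and 128. Of the 1289 windows, 938 were called again without id1, 957 without id4 and 1003 without 9d9a. The sides were separate at every window called, so leaving out 1 library could not reverse the sign of a call.

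The windows lower in the 714 stocks were unevenly spread over the 10 chromosomes. Chromosome 4 held 430 of them, or 18.0% of its 2385 windows tested. Chromosome 5 held 225 (10.5%), chromosome 3 held 118 (5.16%) and chromosome 1 held 103 (3.47%). Chromosomes 4 and 5 were thus above the genome-wide 4.80%, and chromosome 3 was close to it. On chromosome 6 the share was 2.04% and on chromosome 2 it was 1.11%. On chromosomes 7, 8, 9 and 10 it was 0.346%, 0.521%, 1.10% and 0.470%. By whole chromosome, higher windows showed no such concentration, with a share between 1.09% on chromosome 3 and 2.60% on chromosome 4, against 1.55% over the genome. Within chromosome 1, 12 of the 117 windows tested from 51 to 63 Mb were higher.

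**Figure D1:**
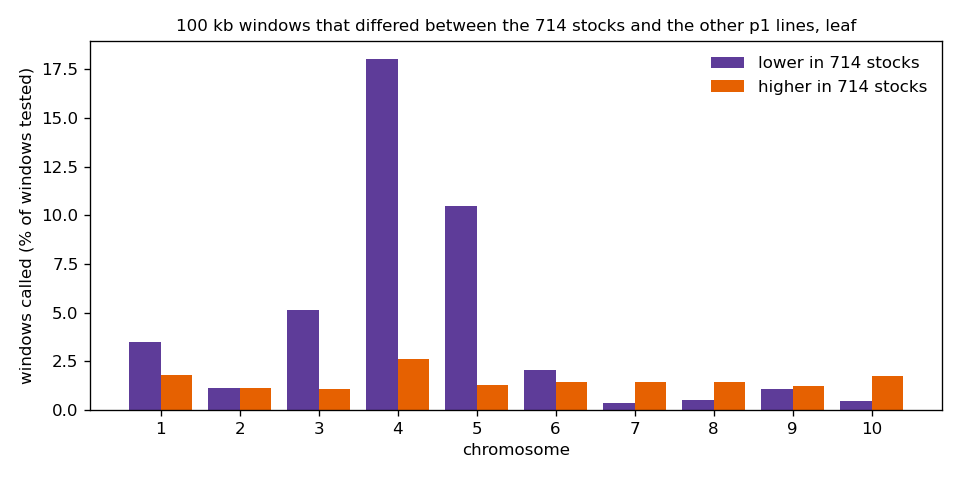
Share of the 100 kb windows tested that were called lower or higher in the 714 stocks than in id1, id4 and 9d9a (y axis, percent of windows tested), by chromosome (x axis). Chromosome 4 has 18.0% of its windows lower and chromosome 5 has 10.5%, while the share higher stays between 1.09% and 2.60%.

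Along the chromosomes the lower windows lay in long segments. Intervals of 5 Mb with at least 8 lower windows, joined over gaps of up to 2 intervals, gave 8 segments with 255 Mb in all. This rule was set after seeing the data, so the values within segments are a description. The segments held 857 of the 975 lower windows among 2528 tested, and the rest of the genome had 118 among 17770 (0.664%). Higher windows were 63 in the segments and 251 outside, which is 2.49% and 1.41% of the windows tested there. The segments were therefore not lower throughout, and 63 windows in them rose.

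Chromosome 4 had the longest segment, from 10 to 95 Mb, with 258 of 840 windows lower. The library of 714 had a median log2 ratio to the mean of the other lines of -0.29, with a 95% interval from -0.32 to -0.25. For 714H the median was -0.31, with an interval from -0.37 to -0.26. A second segment of chromosome 4, from 120 to 160 Mb, had 157 of 398 windows lower and medians of -0.43 in 714 (-0.53 to -0.32) and -0.42 in 714H (-0.52 to -0.31). In that second segment both stocks were more than 2-fold below the other lines, on the log2(CPM + 1) scale, in 95 of 400 windows, against 50 of 846 in the first. The share of lower windows was 39.4% in the second and 30.7% in the first, and neither difference between the segments was tested. The intervals describe the scatter of windows within these libraries, not of plants.

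On chromosome 5 the segment at 5 to 25 Mb had medians of -0.26 in 714 and -0.37 in 714H, with 68 of 198 windows lower. The segment at 165 to 210 Mb had medians of -0.42 in 714 and -0.30 in 714H, with 151 of 446 windows lower. The order of the 714 stocks was opposite in these segments. On chromosome 3 the segment at 200 to 230 Mb had medians of -0.42 in 714 and -0.54 in 714H, with 102 of 299 windows lower. Chromosome 1 had a segment at 240 to 265 Mb, on the other arm from p1, with medians of -0.26 and -0.29 and 84 of 247 windows lower. The shortest, 5 Mb each, were at 210 Mb of chromosome 2, with -0.28 in 714 and -0.52 in 714H, and at 150 Mb of chromosome 6, with -0.27 and -0.28. Among the other lines the medians stayed within 0.05 of their mean in all 8 segments, a spread smaller than the gap to either 714 stock. The segments were built from called windows, and a call needs a small spread among the other lines. This likeness therefore follows at least in part from the selection. Outside the segments the medians were 0.03 in 714 and 0.03 in 714H.

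**Figure D2:**
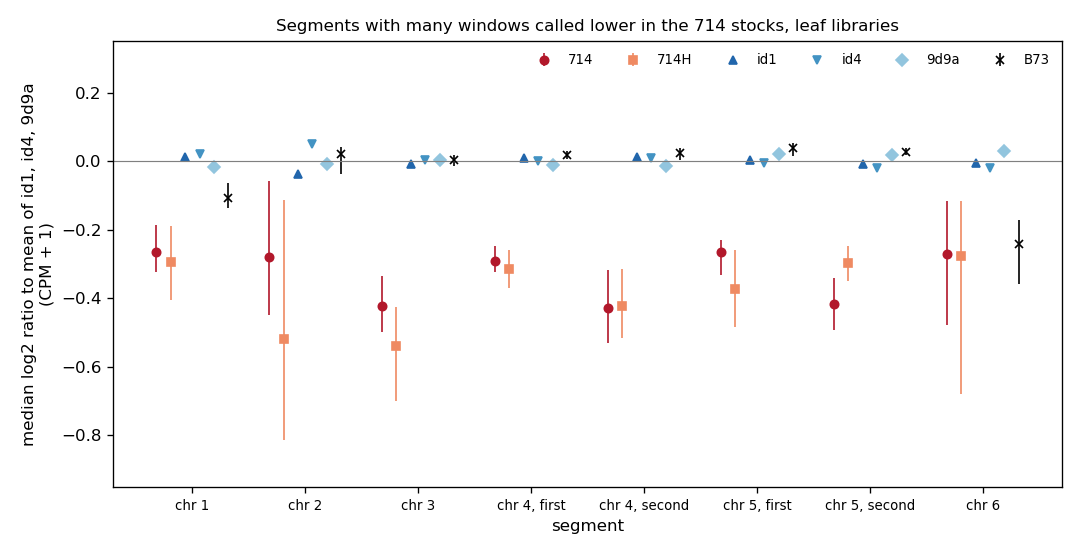
Median log2 ratio of each leaf library to the mean of id1, id4 and 9d9a (y axis, on CPM + 1) over the windows of the 8 segments (x axis, by chromosome; first and second are in order along the chromosome). Bars on 714, 714H and B73 are 95% rank intervals of the median over windows; 714 and 714H lie between -0.26 and -0.54, and B73 lies near 0 except on chromosomes 1 (-0.11) and 6 (-0.24).

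B73 leaf was outside the fit, and its level places each difference. In 6 of the 8 segments the B73 median lay within 0.04 of the mean of id1, id4 and 9d9a. The exceptions were chromosome 1 at 240 Mb, with a B73 median of -0.11 (-0.14 to -0.06), and chromosome 6 at 150 Mb, with -0.24 (-0.36 to -0.17). On chromosome 6 B73 was thus about as low as the 714 stocks, and it was id1, id4 and 9d9a that stood above B73, by medians of 0.26, 0.26 and 0.29 in leaf. Root libraries of B73 and the other lines (the series has no root library of the 714 stocks) gave 0.15, 0.17 and 0.17 for the same ratios there. In the 5 segments of chromosomes 3, 4 and 5 the root medians of id1, id4 and 9d9a over B73 lay between -0.04 and 0.08.

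Taken window by window, B73 was nearer to the other lines than to the 714 stocks at 938 of the 975 lower windows and at 291 of the 314 higher ones. These shares were 96.2% and 92.7%, against 62.1% over all windows tested. B73 reached or passed the level of a 714 stock in 14 of the lower windows and in 8 of the higher ones. At the lower windows the other lines differed from B73 by a median log2 ratio of 0.01 in leaf and 0.04 in root. At the higher windows the medians were -0.01 in leaf and -0.03 in root. At most windows called, B73 was thus nearer to the other lines. It lay within their range at 452 of the 975 lower windows and at 137 of the 314 higher ones. Called windows have a wide gap between the sides by selection, so the 62.1% is not a like reference.

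The farthest fall was in the window from 142.5 to 142.6 Mb of chromosome 4. It had 3.24 CPM in 714 and 5.14 CPM in 714H, against 27.0 in id1, 26.5 in id4, 27.7 in 9d9a and 26.9 in B73. The mean was 6.46-fold lower in the 714 stocks, with a log2 change of -2.69 ± 0.19 (SE, n = 2 and 3 libraries) and an adjusted p of 0.000497 in edgeR. The reads behind the 714 values were 33 in 714 and 52 in 714H. The other lines had an SD of 0.561 CPM here, so the sides were far apart.

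A second example, at 150.7 Mb of the same chromosome, held 10.3 CPM in 714 and 9.89 in 714H, against 39.4 in id1, 43.4 in id4 and 45.4 in 9d9a (log2 -2.08 ± 0.11 SE, adjusted p 0.000312 in edgeR). Its neighbour at 150.9 Mb held 9.81 and 8.81 CPM in the 714 stocks, against 38.5, 38.0 and 32.2 in id1, id4 and 9d9a. At 147.4 Mb the 714 stocks had 2.85 and 3.46 CPM, against 12.7 to 14.7 in the other lines. These windows differ in level, but in each the mean of the 714 stocks was 0.231 to 0.257 of that of the other lines. At 77.5 Mb, in the first segment, the values were 7.95 CPM in 714 and 5.34 in 714H, against 27.2, 27.8 and 34.7 in id1, id4 and 9d9a.

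The windows at 154.6 and 153.7 Mb of chromosome 4 were the least certain of the 8 that fell most. At 153.7 Mb 714 had 36.3 CPM and 714H 20.6, against 157 in id1, 120 in id4 and 126 in 9d9a, while B73 had 72.2. The log2 change was -2.24 ± 0.31 with an adjusted p of 0.0354 in edgeR, and the adjusted p rose to 0.0838 without id1, 0.122 without id4, 0.136 without 9d9a and 0.0763 with B73 added to the other lines. At 154.6 Mb the log2 change was -2.26 ± 0.33 with an adjusted p of 0.0323 in edgeR, and the adjusted p was 0.0634 without id1, 0.137 without id4 and 0.0798 without 714H. The 714 stocks differed from each other at both windows, 714H holding 0.567 of the 714 level at 153.7 Mb (95% counting interval 0.476 to 0.673) and 0.602 at 154.6 Mb (0.476 to 0.758).

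Only 1 of the 8 windows that fell most lay off chromosome 4. At 244.3 Mb of chromosome 1 the 714 stocks had 11.3 and 11.5 CPM, against 57.2 in id1, 52.1 in id4 and 47.7 in 9d9a (log2 -2.20 ± 0.12 SE, adjusted p 0.000312 in edgeR). Each other chromosome is represented by its window with the farthest fall. On chromosome 9 it was at 105.3 Mb, outside the segments, with 84.7 CPM in 714 and 91.2 in 714H, against 301, 304 and 249 in id1, id4 and 9d9a. Its log2 change was -1.69 ± 0.10, with an adjusted p of 0.000312 in edgeR. On chromosome 6 it was at 151.1 Mb, where the 714 stocks had 45.8 and 41.5 CPM and the other lines 112 to 126. B73 had 109 CPM there, so this window went with the other lines although B73 was low over the segment as a whole.

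On chromosome 3 the window was at 228.4 Mb, with 32.1 CPM in 714 and 22.9 in 714H against 73.6 to 89.2 in the other lines and 50.7 in B73. On chromosome 5 it was at 12.1 Mb, with 8.83 and 5.54 CPM against 19.4 to 21.8. On chromosome 2 it was at 213.4 Mb, with 5.59 and 3.86 CPM against 9.30 to 12.1. In these 3 windows 714H was below 714, though on chromosome 2 the counting interval of their ratio (0.447 to 1.05) includes 1. The windows of chromosomes 8 (32.1 Mb, log2 -1.39 ± 0.22), 7 (65.7 Mb, -0.92 ± 0.12) and 10 (41.6 Mb, -0.75 ± 0.13) lay outside the segments. The window of chromosome 8 no longer passed without 714, without 714H or without id1, that of chromosome 10 without 714 or without 714H, and that of chromosome 2 without 714H (adjusted p 0.0688 to 0.194 in edgeR).

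The 8 windows that rose most in the 714 stocks lay on 5 chromosomes, and all of them changed more in log2 than the window that fell most. At 28.1 Mb of chromosome 9 the 714 stocks had 36.8 CPM in 714 and 33.4 in 714H, against 0.596 in id1, 1.35 in id4 and 0.706 in 9d9a. The mean was 39.7-fold higher in the 714 stocks (log2 5.29 ± 0.25 SE, adjusted p 0.000312 in edgeR). B73 had 1.09 CPM in leaf, and the 4 root libraries had between 0.355 and 1.07 CPM. The other lines held 6 to 13 reads each, so counting error alone, 0.29 in log2, is larger than the SE and the size of the fold is uncertain. Every library without the 714 allele thus had at most 1.35 CPM in this window.

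Chromosome 9 had a second such window, which ends at 48.2 Mb, with 34.3 CPM in 714 and 50.5 in 714H, against 1.69, 2.29 and 2.59 in id1, id4 and 9d9a (19.3-fold). At 154.8 Mb of chromosome 2 there were 68.8 and 94.8 CPM in the 714 stocks, against 5.76, 4.37 and 4.001 (17.4-fold). At 247.7 Mb of chromosome 1 there were 50.3 CPM in 714 and 38.1 in 714H, against 2.38, 3.43 and 4.12 (13.3-fold). This last window lies inside a segment where 84 of 247 windows were lower, and close to the one at 244.3 Mb that fell. The log2 changes of the 3 windows were 4.28 ± 0.23, 4.11 ± 0.20 and 3.74 ± 0.22, with adjusted p of 0.000312, 0.000312 and 0.000394 in edgeR.

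Chromosome 4 had 3 of the 8 windows that rose most. They lay at 91.0 Mb, inside the first segment, and at 105.1 and 119.2 Mb, between the 2 segments. The 714 stocks had 14.5 and 13.6 CPM at 91.0 Mb, against 0.894 to 1.41 in the other lines. At 105.1 Mb they had 41.3 and 36.5 CPM, against 3.12 to 4.27. At 119.2 Mb they had 23.8 and 20.98 CPM, against 1.77 to 3.75. The folds were 11.8, 10.6 and 8.85, and the first rests on 9 to 12 reads in each other line, where counting error (0.27 in log2) again exceeds the SE of 0.21. Chromosome 10 had the eighth, at 72.5 Mb, with 68.4 CPM in 714 and 90.5 in 714H, against 8.94 to 11.03 in the other lines (8.11-fold, log2 3.02 ± 0.15, adjusted p 0.000312 in edgeR).

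On the remaining chromosomes the windows that rose most were smaller. That on chromosome 7, at 76.4 Mb, held 23.3 and 23.8 CPM in the 714 stocks, against 4.77, 3.12 and 2.24 in id1, id4 and 9d9a. On chromosomes 6 (22.5 Mb), 5 (176.7 Mb), 3 (60.3 Mb) and 8 (123.3 Mb) the folds were 4.55, 4.55, 4.10 and 2.33. Of these, only the window at 176.7 Mb of chromosome 5 lies in a lower segment. Without 714H the chromosome 8 window had an adjusted p of 0.124 in edgeR, against 0.0125 with all 5 libraries.

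**Figure D3:**
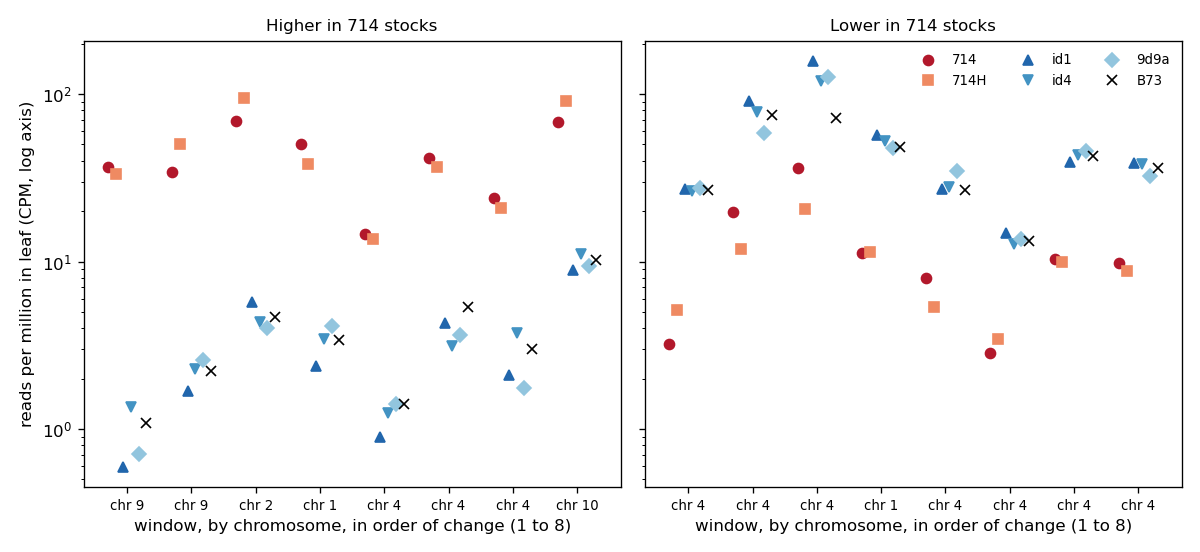
Reads per 1000000 (CPM) in each leaf library (y axis, log scale) at the 8 windows that rose most and the 8 that fell most in the 714 stocks (x axis, in order of change, labelled by chromosome). In every window 714 and 714H lie on one side and id1, id4, 9d9a and B73 on the other; 7 of the 8 that fell are on chromosome 4.

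The label of 714H adds a B73 allele to that of 714, and the labels do not say whether the stocks share the rest of their genetic background. A ratio of 714H to 714 therefore compares these 2 libraries, and the allele and the background cannot be told apart in it. Of the 975 lower windows, 714H lay farther from the other lines than 714 in 569, and the median log2 ratio of 714H to 714 was -0.05. Of the 314 higher windows, 714H lay farther out in 130, with a median ratio of -0.03. Over all windows tested the median ratio was -0.0046 with an SD of 0.26. At the called windows the 714H library was about as far from the other lines as 714. A call needs both stocks to lie far from the other lines, so this likeness follows from the selection of windows.

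Segments differed in which stock was lower. From 200 to 230 Mb of chromosome 3 the median log2 ratio of 714H to 714 was -0.10 (95% interval -0.17 to -0.06), and 714H was below 714 in 199 of 300 windows. The 5 Mb intervals there at 215, 220 and 225 Mb had medians against the other lines of -0.58, -0.43 and -0.42 in 714 and -1.01, -0.91 and -0.73 in 714H. From 165 to 210 Mb of chromosome 5 the ratio was 0.09 (0.07 to 0.11), and 714H was below 714 in 149 of 449 windows. At 205 Mb the medians were -0.58 in 714 and -0.32 in 714H. In the second segment of chromosome 4 the ratio was 0.01 (-0.01 to 0.03), so that the stocks were level there. The lowest interval medians of both stocks were at 150 to 155 Mb of chromosome 4, with -1.04 in 714 and -1.08 in 714H.

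The size of the change was also described against how much small RNA a window had, with the B73 root library, which is outside the fit, as the measure. In the first segment of chromosome 4 the windows with the fewest root reads (median 2.88 CPM) had a median log2 change of -0.12 in the 714 stocks. The middle tertile (19.4 CPM) had -0.36 and the windows with the most reads (61.7 CPM) had -0.47. In all 8 segments the most read tertile had a lower median than the least read, but the middle tertile did not always lie between them. In the second segment of chromosome 4 the medians were -0.26, -0.66 and -0.55 from the least to the most read tertile, and on chromosome 2 they were -0.43, -0.08 and -0.74. The middle tertile was also the lowest in the segments of chromosomes 3 and 6 and in the first of chromosome 5. The 1 CPM added before taking logs shrinks ratios of low windows. With 0.1 CPM added, a setting chosen after seeing the data, the first segment of chromosome 4 had -0.16, -0.37 and -0.48, and the order of the least and most read tertiles held in all 8 segments.

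Counts summed over 5 Mb intervals test longer stretches as single features. Of 412 intervals, 45 were lower in the 714 stocks and 8 higher, which is 10.9% and 1.94%, or 12.9% in all (edgeR, adjusted p under 0.05). The lowest adjusted p was at 130 to 135 Mb of chromosome 4. There the sums were 567 CPM in 714 and 568 in 714H, against 983 in id1, 973 in id4, 990 in 9d9a and 976 in B73 (log2 -0.79 ± 0.02 SE, adjusted p 0.000197 in edgeR). At 150 to 155 Mb they were 1565 and 1536 CPM in the 714 stocks, against 3149, 3003 and 3151 in id1, id4 and 9d9a (log2 -1.0 ± 0.03, adjusted p 0.000302 in edgeR). The third, at 210 to 215 Mb of chromosome 3, had 3791 and 3885 CPM in the 714 stocks, against 5591 to 5705 (log2 -0.56 ± 0.02, adjusted p 0.00107 in edgeR). The median window of these intervals lay at -0.53, -1.04 and -0.48 in 714, and at -0.55, -1.08 and -0.50 in 714H. The window with the most of the difference carried 13.8%, 9.64% and 46.3% of it.

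In the 3 named intervals that rose, 1 window carried most of the difference. At 200 to 205 Mb of chromosome 1 the sums were 2953 and 3004 CPM in the 714 stocks, against 2153 to 2241 in the other lines (log2 0.44 ± 0.02, adjusted p 0.00108 in edgeR), but the median window changed by only 0.03 in 714 and 0.04 in 714H. The window at 201.9 Mb carried 82.9% of the difference, with 1051 and 1154 CPM in the 714 stocks, against 461, 433 and 477 in id1, id4 and 9d9a and 760 in B73. At 130 to 135 Mb of chromosome 10 (log2 0.39 ± 0.03, adjusted p 0.00365 in edgeR) the window at 133.7 Mb carried 88.4%, with 1864 CPM in 714 and 2258 in 714H, against 743, 736 and 813 in id1, id4 and 9d9a. Without the most read window of each interval the log2 change there was 0.06, with an adjusted p of 0.164 in edgeR. In the same fit it was 0.11 at 200 to 205 Mb of chromosome 1 (adjusted p 0.0424 in edgeR). For the third interval, on chromosome 4, it was 0.20 (adjusted p 0.00889 in edgeR), against 0.19 with all windows. The window removed there was therefore not one that carried the rise. The median window of that interval was at -0.02 in 714 and 0.01 in 714H. The interval also holds the window at 105.1 Mb, with 41.3 and 36.5 CPM in the 714 stocks, against 3.12 to 4.27 in the other lines. At 105 to 110 Mb of chromosome 4 the window at 109.2 Mb carried 59.8%, with 49.96 and 72.9 CPM in the 714 stocks, against 15.5 to 17.5 in the other lines, and the interval's adjusted p was 0.00908 in edgeR, against 0.0783 without 714 and 0.0599 without 714H.

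Some long stretches lay higher in both 714 stocks without passing the test. The thresholds that pick them were set after seeing the data. In 17 of the 5 Mb intervals the medians of 714 and 714H were both at least 0.2 above the mean of the other lines. The lowest of the other lines was id1 in 8 of them, 9d9a in 5 and id4 in 4. B73 was at least 0.1 above the other lines' mean in all 17. At 80 to 85 Mb of chromosome 1 the medians were 0.82 in 714, 0.82 in 714H and 0.74 in B73, and they were -1.02 in id1, 0.29 in id4 and 0.76 in 9d9a. Here id1 was low, while the 714 stocks were near B73. At 235 to 240 Mb of the same chromosome 714 was at 0.23, 714H at 0.27 and B73 at 0.24, and the low line was 9d9a, at -0.72, with id1 at 0.33 and id4 at 0.31. At 15 to 20 Mb of chromosome 2 the low line was id4, at -0.41, with 714 at 0.21, 714H at 0.31 and B73 at 0.24. Which line was low thus differed between regions, and the root libraries gave the same line the lowest ratio to B73 in these 3 intervals, at -1.47, -0.88 and -0.66. None of the 17 was called by edgeR, none had an unadjusted p under 0.05, and DESeq2 called 1. By contrast, medians of both stocks were at least 0.2 below the other lines in 39 intervals, of which edgeR called 36, and B73 was within 0.1 of the other lines in 35.

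**Figure D4:**
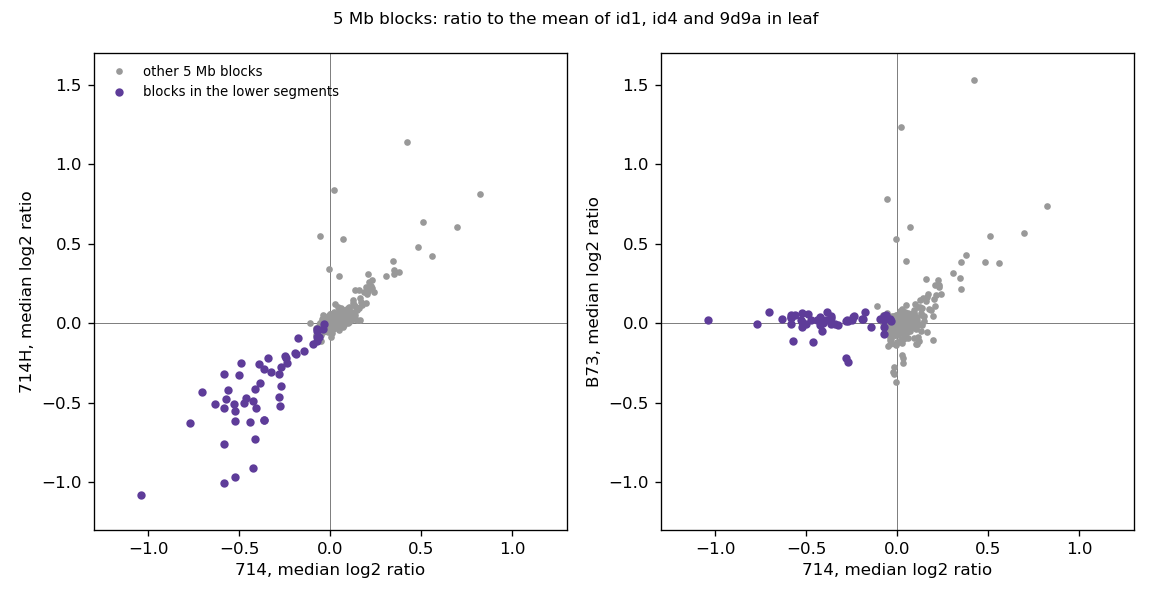
Median log2 ratio to the mean of id1, id4 and 9d9a in leaf for each 5 Mb interval (block in the legend), with 714 on the x axis and 714H (left) or B73 (right) on the y axis. Intervals of the 8 lower segments run along the diagonal for 714H and mostly along 0 for B73. Exceptions include 255 to 260 Mb of chromosome 1 (B73 at -0.22) and 150 to 155 Mb of chromosome 6 (-0.24). The 17 intervals where both 714 stocks were at least 0.2 higher are also above 0 in B73. A few intervals of chromosome 1 near 35 and 50 Mb are high in 714H and B73 but not, or less, in 714.

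Near p1 itself the other lines differed widely among themselves. The window of chromosome 1 that ends at 48.2 Mb, next to p1, had 1388 CPM in 714 and 589 in 714H, against 1271 in id1, 962 in id4 and 33.9 in 9d9a. The sides overlapped, and the log2 change was 0.39 ± 1.61 (adjusted p 0.938 in edgeR). It was -0.36 without 714 and -0.18 without 9d9a. From 48 to 51 Mb the median log2 ratio to the other lines' mean was 0.69 in 714 (0.50 to 0.80) and 0.25 in 714H (0.16 to 0.42), while id1 was at 0.65, id4 at -0.29 and 9d9a at -0.38. There 714 was just above id1, the highest of the other lines, and 714H lay among them. No window of the 29 tested was called by edgeR, DESeq2 or limma, and none had an unadjusted p under 0.05 in edgeR. Over the genome edgeR called 6.35% of windows, so a stretch of 29 would hold few calls at that share.

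From 51 to 63 Mb both 714 stocks were above the mean of the other lines, with medians of 0.55 in 714 (0.29 to 0.71) and 0.71 in 714H (0.65 to 0.83). There id1 was at -0.35, id4 at -0.27 and 9d9a at 0.62, and B73 was at 0.82. Of 117 windows tested 12 were higher and none lower (edgeR), against 1.55% of windows higher over the genome. From 33 to 48 Mb the medians were -0.03 in 714 (-0.08 to 0.01) and 0.49 in 714H (0.36 to 0.67), with B73 at 0.83. Of 148 windows tested there 2 were called, both lower (edgeR), against 6.35% called over the genome. In this stretch id1 was at -0.09, id4 at 0.28 and 9d9a at -0.15. The library of 714 thus lay among these lines, near their mean and below id4, and 714H lay between 714 and B73. From 165 to 210 Mb of chromosome 5 714H also lay between 714 and B73, with medians over B73 of -0.44 in 714 and -0.34 in 714H. From 200 to 230 Mb of chromosome 3 it lay farther from B73 than 714 did, with -0.42 in 714 and -0.58 in 714H.

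Farther along, from 63 to 70 Mb, 714 had a median of 0.07 and 714H of 0.19, with B73 at 0.25, id1 at -0.08, id4 at -0.11 and 9d9a at 0.34. None of the 70 windows there was called by edgeR, DESeq2 or limma, and 1 had an unadjusted p under 0.05 in edgeR. The share called by edgeR over the genome was 6.35%, and the difference of this stretch from it was not tested. From 70 to 90 Mb the medians were 0.60 in 714 and 0.50 in 714H, with 0.53 in 9d9a, 0.07 in id4, -0.53 in id1 and 0.45 in B73. The 714 stocks and 9d9a were near each other there, and 3 of 198 windows were higher (edgeR), against 1.55% over the genome.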

How the data were processed

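The authors deposited counts, namely the total reads of each library per 100 kb window, per the file headers and values. The submitters' processing notes list Bowtie. Version, genome build, read lengths and the handling of reads that match several places were not given in the sources used here, so coordinates are those of the deposited windows. Because reads were matched to a reference, a window's count depends on how well a line's sequence matches it, and whether this bears on the differences was not tested. Windows not listed were taken as 0, and the listed position as the window's start.

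CPM are counts over TMM-adjusted library sizes, with factors from all 10 libraries. The window test was edgeR 4.0.16 (R 4.3.3) with its default low-count filter, a robust quasi-likelihood fit, 3 residual degrees of freedom and Benjamini-Hochberg adjustment at 0.05. Sums over 5 Mb intervals of at least 20 windows were tested alike. SE values come from the F statistic, and can be smaller than counting error where reads are few. The biological coefficient of variation was 0.154 in the window fit and 0.0775 in the interval fit. The p-values measure spread between libraries of different lines. Both 714 stocks carry the 714 allele, and the test counts them as independent. The p-values and SE values make no allowance for this. Regional medians use log2(CPM + 1) of windows averaging at least 5 reads, with 95% rank intervals. Counting intervals (exact, Clopper-Pearson) on a ratio of 714H to 714 cover counting error only. The fit was tested on simulated data. Alternatives were library totals, TMM over the 5 libraries, DESeq2 1.42.0, limma 3.58.1, other filters, 1 Mb sums, B73 added and each library left out.

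Named windows were the 8 with the largest change in each direction and the farthest per chromosome, among those called with a mean of at least 50 reads and separate sides, plus the window next to p1. Named intervals were the 3 with the lowest p in each direction. The comparison and the regions were chosen with earlier results of these data known.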

Additional observations from a re-analysis of the deposited data

How the results depend on the processing

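No paired analysis was possible because each line has 1 leaf library and the labels give no replicate numbers. Of 1289 windows called, 1248 were also called with library totals, 1288 with TMM over the 5 libraries, 1275 by DESeq2, 1277 by limma and 1222 with B73 added. None of the 1289 changed sign under these, which their separate sides left little room for. With 1 library left out in turn, 681 to 1153 windows were called, 553 to 861 lower and 113 to 292 higher. Where a 714 stock was left out, the lone one is assumed to vary like the other lines. Sums over 1 Mb gave 215 calls of 2049, with 176 lower and 39 higher. This is a larger share than the 6.35% of 100 kb windows, and the cause was not tested. For 5 Mb intervals DESeq2 called 108, with 70 lower and 38 higher, and the cause was not tested. Higher intervals numbered 13 with B73 added and 2 to 10 with 1 library left out, and the cause was not tested. At the window next to p1 the log2 change with 1 library left out ranged from -0.36 (without 714) to 0.99 (without id1), with -0.18 without 9d9a. It was 1.37 by limma on log2(CPM + 1), and its adjusted p was above 0.8 in every edgeR and limma fit. Windows with under 50 reads on average numbered 19 of the lower and 29 of the higher calls, and counting error limits their folds.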
